A study of Mus musculus with 9 samples.

Results

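Genes with which endothelium controls clotting and clot lysis were examined in meningeal lymphatic endothelial cells (MLECs) of tumor-bearing and control mice. The 9 genes, Procr, Thbd, Tfpi, Pros1, Vwf, F8, F3, Plat and Plau, were taken by symbol from the 24321 genes listed in the expression table, with earlier results of these data known, and each symbol had 1 row. MLECs came from meninges of male C57BL/6 mice that were 10 weeks old by the labels and had received PBS (control), GL261 glioma cells or B16 melanoma cells, both lines being syngeneic to this strain. By the labels, 100000 cells in 5 µL of PBS were given into the cisterna magna, and meninges were collected about 3 weeks later for GL261 and about 2 weeks later for B16, whereas the methods of the study describe a subdural injection for MLEC collection. The labels give no separate collection time for the control mice. The study's text differs from the labels, with a single time for all groups in its results and a range of times in its methods. If the labels hold, time since injection cannot be told apart from the tumor line. Each group had 3 libraries, each from meninges pooled from 6 mice, and about 10 sorted cells entered each Smart-seq2 library. Cells were stained for CD31, CD45 and LYVE-1, while the study elsewhere describes the gate with PDPN in place of LYVE-1. Each library is thus a small draw of cells, and the spread between libraries includes that draw.

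Resting endothelium keeps blood fluid. The endothelial protein C receptor (Procr) and thrombomodulin (Thbd) together let thrombin activate protein C, whose cofactor is protein S (Pros1), and tissue factor pathway inhibitor (Tfpi) blocks the complex of tissue factor (F3) with factor VII that starts coagulation. Von Willebrand factor (Vwf) is stored in Weibel-Palade bodies, tethers platelets and carries coagulation factor VIII (F8) in plasma, and the plasminogen activators of tissue type (Plat) and urokinase type (Plau) start the lysis of fibrin. Lymphatic endothelium is a known source of factor VIII, whereas von Willebrand factor is best known as a product of blood vessel endothelium.

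Expression is given as FPKM, fragments scaled to transcript length and to the mapped fragments of the library, which allows levels of genes of different length to be compared. Differences are of mean log2(FPKM + 1), tested with limma over the 9955 genes that reached an FPKM of 1 in 3 or more of the 9 libraries. Calls use p-values adjusted by the method of Benjamini and Hochberg, at 0.05. Of the 9 genes, 8 passed that filter, and F3 did not. GL261 and B16 libraries were joined as tumor-associated MLECs for the main comparison, as the study did. The median difference of all genes tested between tumor-associated and control MLECs was 0.20 on the log2 scale. It fell to 0.05 when each library was rescaled to the same sum and to 0.03 after quantile normalization.

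The libraries differed in more than tumor status. Between 7303 and 8688 genes had an FPKM above 0 in the control libraries and between 8736 and 10852 in the tumor-associated libraries, so each tumor-associated library listed more genes than each control library. By the study's own listing, each also had more aligned reads than any control, and depth cannot be told apart from tumor status. The pan-endothelial genes Pecam1 and Cdh5 were above 0 in all 9 libraries, as were the lymphatic genes Lyve1, Pdpn, Flt4 and Prox1. The summed FPKM of 6 lymphatic endothelial markers was 2566 to 2958 in controls and 797 to 2511 in tumor-associated libraries, and that of 9 blood endothelial markers was 2370 to 3163 in controls and 6060 to 9580 in tumor-associated libraries, without overlap in either case. Of the 6 lymphatic markers, Flt4, Mmrn1 and Reln fell past limma's threshold, as 1.02% of all genes tested did. Lyve1 (-0.36, limma adjusted p = 0.629), Pdpn (-1.48, 0.235) and Prox1 (-2.79, 0.0509) did not pass, and Lyve1 and Pdpn overlapped between the groups. The study reported no significant differences in its lymphatic marker genes. Among the blood endothelial markers, Cd34 lay at 0.370 to 14.3 in controls and 153 to 592 in tumor-associated libraries. Dcn, a fibroblast gene, lay at 15.7 to 44.9 in controls and at most 0.146 in tumor-associated libraries. The other fibroblast markers did not share this pattern. Col1a1 reached at most 0.135 in controls and 0.534 in tumor-associated libraries, and Col1a2 at most 2.53 and 1.22. Lum was at 0 in all 9 libraries, and Pdgfra was above 0 only in B16 replicate 1 (3.85). Control replicate 1 alone held much mural RNA, with Acta2 at 505 FPKM and Myh11 at 57.2. In such bulk libraries, fewer cells of a type and less RNA per cell cannot be told apart.

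Procr and Vwf were the genes that rose in tumor-associated MLECs. Of the 8 genes tested, 2 passed with a higher level and 0 with a lower one, whereas 2.9% of all genes tested passed with a higher level and 1.02% with a lower one, together 3.93%. At an unadjusted p under 0.05, 5 genes were higher (Procr, Thbd, Tfpi, Vwf and Plat) and 2 were lower (F8 and Plau), against 19% of all genes in either direction. The groups did not overlap for Procr and Vwf, which were higher in all 6 tumor-associated libraries, nor for F8 and Plau, which were lower in all 6. The shares of all genes with such a separation were 6.08% higher and 4.44% lower. The median difference of the 8 genes was 1.96, beside 0.20 over all genes. Procr, Vwf and Plat were each at 0 in a control library and passed the filter only through tumor-associated libraries, which favoured a higher level with tumors. Procr, Vwf and Plat are among the genes that the study itself picked as upregulated from these same libraries, so their direction is not independent evidence.

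**Figure D1:**
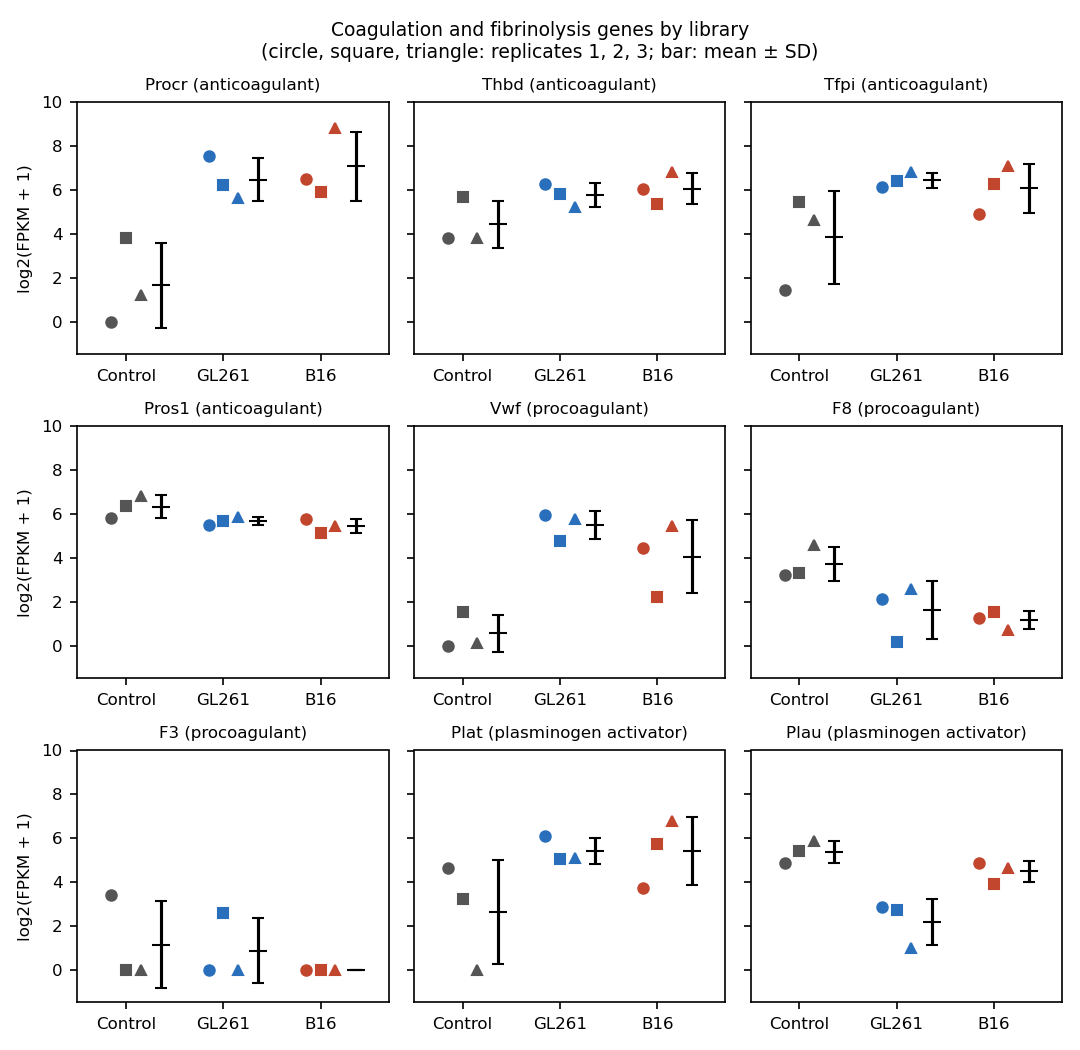
Expression of the 9 genes as log2(FPKM + 1) (vertical axes) in the 3 libraries of each group (horizontal axes, points), with the mean and SD of each group as a bar. Procr and Vwf lie higher and F8 and Plau lower in all 6 tumor-associated libraries than in any control library, and F3 is at 0 in 7 of the 9 libraries.

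Among the anticoagulant genes, Procr showed the largest difference. Procr (ENSMUSG00000027611, mm9 chr2:155576853-155581207, plus strand) was listed at 0, 12.9 and 1.30 FPKM in control replicates 1 to 3, at 186, 74.1 and 48.3 in GL261 replicates 1 to 3, and at 89.1, 58.8 and 459 in B16 replicates 1 to 3. All 6 tumor-associated values lay above the highest control value, and the lowest of them was 48.3. The mean FPKM of the tumor-associated MLECs was 32.2-fold that of the controls (152 ± 158, SD, n = 6, against 4.74 ± 7.11, SD, n = 3). By limma, the difference was 5.11 on the log2 scale (SE 0.85, 95% confidence interval 3.27 to 6.94, adjusted p = 0.00481), and the exact permutation test gave p = 0.0119, the smallest that 84 divisions of the libraries allow. Procr passed limma's threshold in GL261 MLECs (difference 4.80, SE 1.02, adjusted p = 0.0259) and in B16 MLECs (difference 5.41, SE 1.02, adjusted p = 0.0199). The GL261 call was lost without control replicate 1 or 3 or any 1 of the GL261 libraries (limma adjusted p 0.0565 to 0.128). The B16 call was lost without control replicate 1 (0.0502), control replicate 3 (0.0546) or B16 replicate 3 (0.103). The GL261 and B16 levels overlapped, with a GL261 minus B16 difference of -0.61 and a confidence interval of -2.84 to 1.61.

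Thbd and Tfpi were at higher mean levels in both tumor groups, but neither passed limma's threshold. Thbd, the thrombin receptor that works beside Procr (chr2:148230207-148233924, minus strand), had 12.8, 50.3 and 13.2 FPKM in control, 77.8, 56.3 and 36.4 in GL261 and 64.5, 40.3 and 111 in B16 replicates 1 to 3. Control replicate 2 lay within the tumor-associated range, whereas the other controls lay below it. The difference was 1.49 (SE 0.53, confidence interval 0.34 to 2.65, limma adjusted p = 0.148), and without control replicate 2 it was 2.12 with an adjusted p of 0.0383. Tfpi (chr2:84273012-84316932, minus strand) had 1.74, 43.0 and 23.6 FPKM in control, 69.6, 84.3 and 112 in GL261 and 28.7, 75.8 and 135 in B16 replicates 1 to 3. All 3 GL261 values exceeded the controls, while B16 replicate 1 lay among them. The Tfpi difference was 2.42 (SE 0.76, confidence interval 0.77 to 4.08, limma adjusted p = 0.102), and without control replicate 2 it was 3.23 with an adjusted p of 0.0383.

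Pros1, the protein S gene (chr16:62854133-62929172, plus strand), was the most abundant of the 9 genes in each of the 3 control libraries and in none of the 6 tumor-associated ones, where Procr or Tfpi was highest. Its FPKM was 55.5, 82.6 and 113 in control, 44.5, 50.0 and 58.0 in GL261 and 53.3, 34.4 and 43.4 in B16 replicates 1 to 3. Only GL261 replicate 3 reached above the lowest control. The mean was 83.7 ± 28.7 (SD, n = 3) in controls, beside 47.3 ± 8.34 (SD, n = 6) with tumors, a difference of -0.77 (SE 0.38, confidence interval -1.59 to 0.04, limma adjusted p = 0.288). The summed FPKM of Procr, Thbd, Tfpi and Pros1 was 70.1 to 189 in controls and 209 to 748 in tumor-associated libraries. This sum includes Procr, at most 12.9 in controls and at least 48.3 with tumors, which passed the filter only through tumor-associated libraries. Thbd and Tfpi did not pass limma's threshold and the mean of Pros1 was lower with tumors. The sum is therefore not evidence of a rise of the 4 genes as a set.

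Vwf and F8, whose proteins circulate as a complex, differed in opposite directions. Vwf (chr6:125496792-125636697, plus strand) was listed at 0, 1.92 and 0.0956 FPKM in control, 62.2, 26.8 and 54.1 in GL261 and 21.2, 3.67 and 43.0 in B16 replicates 1 to 3. Each tumor-associated value exceeded each control value, with B16 replicate 2 nearest to the controls. The mean was 52.3-fold higher in tumor-associated MLECs (35.2 ± 21.9, SD, n = 6, against 0.672 ± 1.08, SD, n = 3), and the difference was 4.23 (SE 0.85, confidence interval 2.39 to 6.06, limma adjusted p = 0.0142, exact permutation p = 0.0119). Without control replicate 1, the adjusted p of Vwf was 0.0503. Vwf passed in GL261 (difference 4.96, SE 0.93, limma adjusted p = 0.0137) and missed the threshold in B16 (difference 3.49, SE 0.93, adjusted p = 0.0809). The GL261 call was lost without any 1 of the GL261 libraries (adjusted p 0.0517 to 0.0866). The GL261 minus B16 difference of 1.47 had a confidence interval of -0.56 to 3.50, so a difference of the tumors in Vwf was not shown.

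F8 (chrX:72418054-72627954, minus strand) had 8.27, 8.86 and 23.3 FPKM in control, 3.35, 0.103 and 5.08 in GL261 and 1.38, 1.87 and 0.644 in B16 replicates 1 to 3. Each of the 6 tumor-associated values lay below each control value. The control mean was 6.51-fold higher (13.5 ± 8.53, SD, n = 3, against 2.07 ± 1.85, SD, n = 6). The difference was -2.31 (SE 0.77, confidence interval -3.97 to -0.66) and did not pass limma's threshold (adjusted p = 0.118). The exact permutation test of F8 alone gave p = 0.0119, which is not adjusted for the number of genes. In the same test, the other tested genes that missed limma's threshold were also under 0.05. These were Tfpi, Pros1 and Plat (0.0238 each), Thbd (0.0357) and Plau (0.0476). The order within each library can be read without any scaling between libraries. Vwf lay above F8 in 0 of 3 control libraries and in 6 of 6 tumor-associated libraries. The excess of F8 over Vwf was 4.61-fold in control replicate 2 and 244-fold in control replicate 3, and that of Vwf over F8 ranged from 1.97-fold in B16 replicate 2 to 259-fold in GL261 replicate 2. Stab2, an endocytic receptor of lymphatic and sinusoidal endothelium that takes up Vwf with factor VIII, had 2.82 to 30.3 FPKM in controls and at most 2.52 in tumor-associated libraries, and fell by 3.04 on the log2 scale (SE 0.77, limma adjusted p = 0.0461). With 1 library left out in turn, Stab2 had an adjusted p of 0.0248 to 0.119, and passed only without control replicate 1 or B16 replicate 3. Stab2 passed the filter only through the control libraries, which favoured a lower level with tumors. Of the platelet genes listed beside Vwf, Pf4 was at 0 in all 3 controls and at 0 to 187 FPKM (median 26.4) in tumor-associated libraries. Its difference was 4.42 (limma adjusted p = 0.0739). Itga2b was at 0 in all 3 controls and at 0 to 4.11 with tumors. Gp1ba and Gp1bb reached at most 2.72 and 1.38, both in controls, and Ppbp and Gp9 were at 0 in all 9. Of the 9 blood endothelial markers, 6 rose (Flt1, Cd34, Emcn, Esam, Plvap and Ly6c1) and 0 fell, beside 2.9% and 1.02% of all genes tested. Flt1, Cd34 and Ly6c1 passed the filter only through tumor-associated libraries, which favoured a higher level with tumors. Sox17 (0.69), Kdr (-0.34) and Cldn5 (-0.63) did not pass, and Cldn5 fell in GL261 (-1.01, limma adjusted p = 0.0215). The part of blood endothelial cells in the Vwf difference was not tested.

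**Figure D2:**
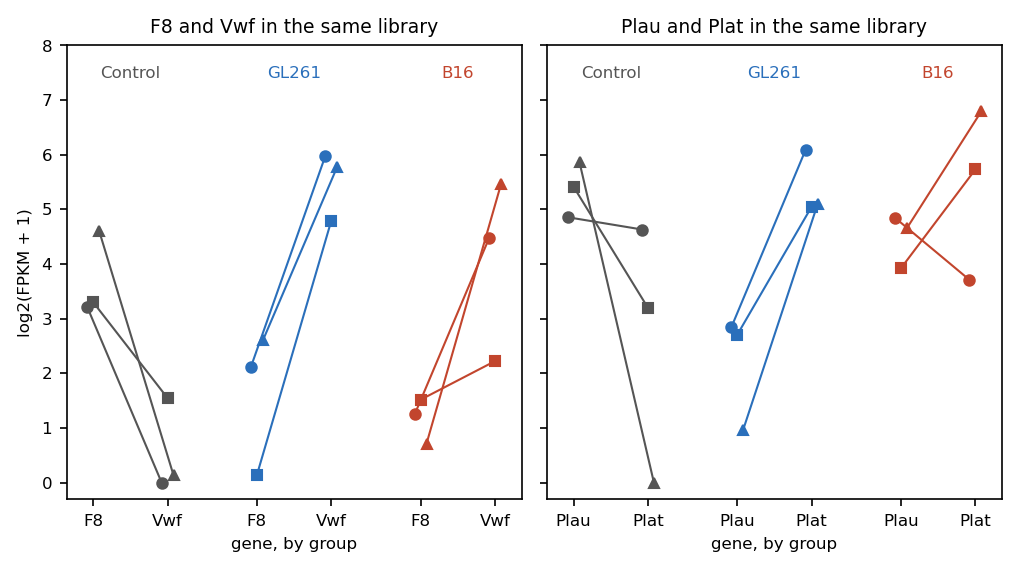
Levels of F8 and Vwf (left) and of Plau and Plat (right) as log2(FPKM + 1), with a line joining the values of 1 library and symbols marking replicates 1, 2 and 3. The lines of F8 and Vwf fall in all 3 control libraries and rise in all 6 tumor-associated libraries, and those of Plau and Plat fall in the controls and in B16 replicate 1 and rise in the other tumor-associated libraries.

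Tissue factor was listed at 0 in most libraries. F3 (chr3:121426455-121437970, plus strand) was listed at 9.68 FPKM in control replicate 1 and at 4.96 in GL261 replicate 2, and at 0 in the other 7 libraries. The library with the higher value was the control with mural RNA, and the part of mural cells in it was not tested. An exact permutation test of F3 gave p = 0.75.

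The mean levels of the plasminogen activators also differed in opposite directions. Plat, tissue plasminogen activator (chr8:23868216-23893319, plus strand), had 23.8, 8.18 and 0 FPKM in control, 67.4, 32.2 and 33.2 in GL261 and 12.1, 52.1 and 110 in B16 replicates 1 to 3. All GL261 libraries lay above the controls, and B16 replicate 1 lay between control values. The difference between tumor-associated and control MLECs was 2.80 (SE 0.92, confidence interval 0.83 to 4.78, limma adjusted p = 0.113), and without control replicate 1 it was 3.81 with an adjusted p of 0.0498.

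Plau, urokinase (chr14:21655884-21662610, plus strand), had 28.0, 41.7 and 57.1 FPKM in control, 6.18, 5.53 and 0.961 in GL261 and 27.8, 14.2 and 24.2 in B16 replicates 1 to 3. Each tumor-associated value lay below each control value, as for 4.44% of all genes tested, although B16 replicate 1 (27.8) came next to control replicate 1 (28.0). The GL261 values lay below those of B16, and the share of all genes with such an order of the 3 groups was not computed. Over both tumors, the difference was -2.05 (SE 0.81, confidence interval -3.80 to -0.30, limma adjusted p = 0.192). In GL261 MLECs, Plau fell by 3.20 on the log2 scale (SE 0.71, limma adjusted p = 0.0308), the mean of the controls being 10.0-fold higher. Plau was then 1 of 3 genes past the threshold in GL261, beside Procr and Vwf, where 3.49% of all genes passed. This call was lost without any 1 of the GL261 libraries (adjusted p 0.0701 to 0.0883), control replicate 2 (0.0613), control replicate 3 (0.0804) or B16 replicate 3 (0.0512), and with only the GL261 and control libraries in the fit (0.0786). In B16 MLECs the Plau difference was -0.90 (SE 0.71, confidence interval -2.45 to 0.64, limma adjusted p = 0.602), and Procr was the only 1 of the 8 genes to pass, where 2.11% of all genes did.

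GL261 and B16 MLECs were compared directly to ask whether the genes differed between the tumors. By limma, 0 of the 8 genes passed, beside 0.01% of all genes. At an unadjusted p under 0.05, 1 of the 8 did, beside 5.5% of all genes, and this gene was Plau (GL261 minus B16 -2.30, SE 0.71, confidence interval -3.85 to -0.76, limma adjusted p = 0.509). Plau was lower in all 3 GL261 libraries than in any B16 library, and the share of all genes separated in this way was not computed. For Plat the tumors had nearly the same mean, with a difference of 0.0018 and a wide confidence interval of -2.43 to 2.44. Within libraries, Plat lay above Plau in 0 of 3 control libraries, in 3 of 3 GL261 libraries (5.81-fold to 34.6-fold) and in 2 of 3 B16 libraries, B16 replicate 1 keeping the control order with Plau 2.29-fold higher.

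**Figure D3:**
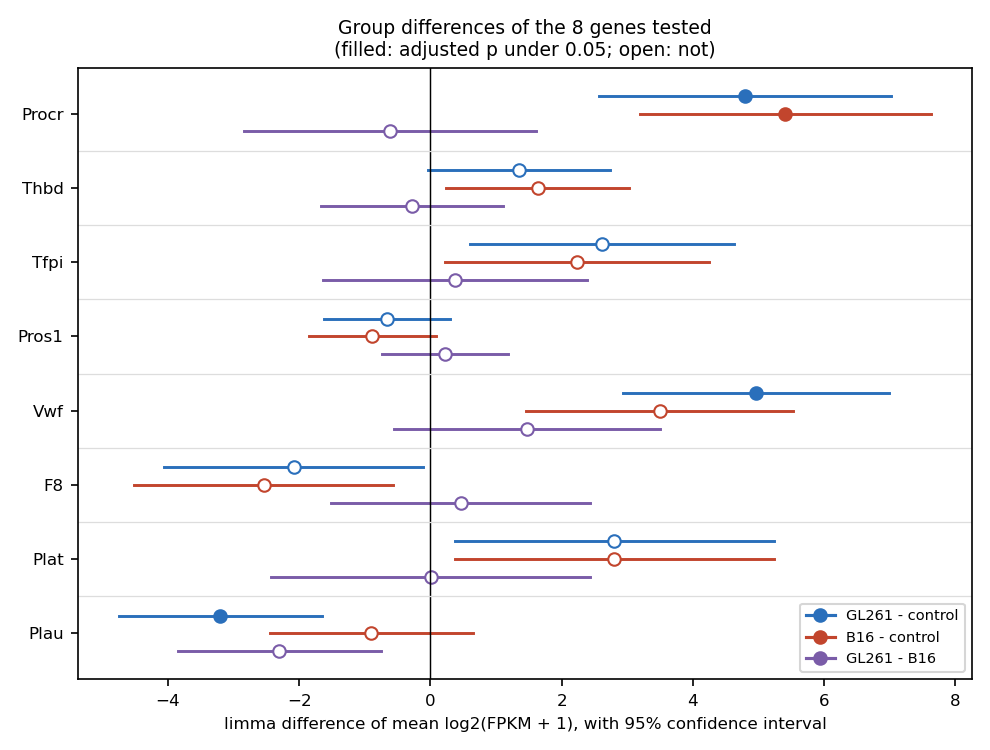
limma differences of mean log2(FPKM + 1) (horizontal axis, points) with 95% confidence intervals (lines) for the 8 genes tested (vertical axis), in GL261 minus control, B16 minus control and GL261 minus B16. Filled points passed the threshold, which were Procr in both tumors and Vwf and Plau in GL261, and no interval of GL261 minus B16 excludes 0 except that of Plau.

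Promoter sequences were read for the genes at the ends of this range. The set of RefSeq promoters used here (GRCm38.p6) held a start site for 5 of the 9 genes, Procr, Tfpi, Pros1, F8 and F3. It held no entry for Thbd, Vwf, Plat and Plau. The 250 bases before the start site are shown for Procr and F8, 5′ to 3′ on the strand of the gene. Procr rose, and F8, like Plau, was lower in each tumor-associated library than in any control. Capitals mark matches, on either strand, to GGAAG (the ETS family core), GGGCGG (the Sp1 GC box), CACCC (a Kruppel-like factor box), TGANTCA (the AP-1 site) and TATAAA (the TATA box), and no matches overlap in these windows.
Procr (chr2:155750967-155751216, plus strand): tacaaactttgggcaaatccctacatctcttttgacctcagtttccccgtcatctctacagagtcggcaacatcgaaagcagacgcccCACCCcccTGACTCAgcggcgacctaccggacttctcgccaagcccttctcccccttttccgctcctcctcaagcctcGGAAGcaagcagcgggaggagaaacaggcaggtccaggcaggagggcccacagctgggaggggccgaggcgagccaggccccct
F8 (chrX:75380042-75380291, minus strand): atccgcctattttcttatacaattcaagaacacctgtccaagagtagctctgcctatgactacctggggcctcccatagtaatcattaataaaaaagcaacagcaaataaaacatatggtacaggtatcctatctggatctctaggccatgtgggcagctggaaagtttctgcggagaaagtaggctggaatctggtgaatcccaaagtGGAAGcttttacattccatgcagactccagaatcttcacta
The Procr window held CACCC with its first base at -162, TGANTCA at -154 and GGAAG at -84 from the start site. The F8 window held only GGAAG, at -41. Of 32851 windows of this length, 64.1% held GGAAG, 32.7% GGGCGG, 52% CACCC, 6.75% TGANTCA and 12.4% TATAAA, so TGANTCA was the least common of the motifs in the Procr window. In the windows not shown, F3 held 2 matches to TGANTCA, and Tfpi and Pros1 held 0. No binding was measured in these cells, and a match is given as a description of the sequence.

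The partners of the 9 genes were taken as 57 other genes in 7 lists. Of them, 30 were tested and 19 were listed at 0 in all 9 libraries. In tumor-associated MLECs 5 rose and 2 fell, beside 2.9% and 1.02% of all genes tested, and the median difference over the 30 was 0.47. In GL261 MLECs 2 rose and 1 fell, beside 3.49% of all genes in either direction, and in B16 MLECs 3 rose and 1 fell, beside 2.11%. Except for Entpd1, these single-tumor calls depended on single libraries. Ptgs1 was lost in GL261 without any 1 GL261 library (limma adjusted p 0.0652 to 0.104). In B16, Ptgs1 was lost without any 1 B16 library (0.0638 to 0.145) and Nos3 without B16 replicate 1 (0.0805) or 3 (0.106). Cd63 in GL261 was lost without any 1 control or GL261 library (0.0749 to 0.173). With the aligned reads as a covariate all 7 calls between tumor-associated and control MLECs were lost (limma adjusted p from 0.0891 for Entpd1 to 0.603 for Cd63), as they were with the genes above 0 (0.0589 for Entpd1 to 0.564 for Selp).

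The circulating factors, which are made mainly by the liver, were hardly listed. None of the 14 genes of this list, among them F2, F7, F9, F10 and the fibrinogen genes, was tested, and 10 were at 0 throughout. Proc, the gene of protein C on which Procr and Thbd act, and Plg, the gene of plasminogen on which Plat and Plau act, were listed at 0 in all 9 libraries. Of 9 inhibitors and cofactors, 3 were tested and none passed (Tfpi2, Serpine2 and Gas6). The main thrombin receptor F2r had 42.6 to 69.2 FPKM in controls and 15.2 to 70.5 in tumor-associated libraries, with a difference of -0.76 (SE 0.52, limma adjusted p = 0.445).

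In the fibrinolysis list of 11 genes, 6 were tested and Plaur, the urokinase receptor that holds Plau at the cell surface, was the 1 that passed. Plaur was listed at 0, 76.2 and 17.1 FPKM in control, 179, 141 and 123 in GL261 and 400, 230 and 226 in B16 replicates 1 to 3. All 6 tumor-associated values exceeded the controls, as for 6.08% of all genes tested, on the opposite side from Plau. Plaur was at 0 in a control library and passed the filter only through tumor-associated libraries, which favoured a higher level with tumors. Plaur rose by 4.17 (SE 0.98, confidence interval 2.06 to 6.28, limma adjusted p = 0.0320), a call kept only without control replicate 1, control replicate 2 or GL261 replicate 3 when 1 library was left out (adjusted p 0.00364 to 0.0651). It was also lost with a pseudocount of 0.1 (0.0869), rescaled libraries (0.0531), no filter (0.107) and no trend (0.0743). Anxa2 and S100a10, which together bind Plat and plasminogen on endothelium, were abundant in all groups (Anxa2 658 to 827 FPKM in controls and 740 to 1447 in tumor-associated libraries) and did not pass.

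Genes by which endothelium restrains platelets had a median difference of 4.18 over 5 genes, of which 3 rose and 0 fell (2.9% and 1.02% of all genes). Each of the 5 was at 0 in some control library and passed the filter only through tumor-associated libraries. The filter thus favoured a higher level with tumors, and this median is not evidence about the list. Entpd1 (CD39), which degrades ATP and ADP, was listed at 0, 11.7 and 0 FPKM in control, 268, 251 and 205 in GL261 and 201, 224 and 351 in B16 replicates 1 to 3. The lowest tumor-associated value was far above the highest control. Entpd1 rose by 6.72 (SE 0.69, limma adjusted p = 1.70e-04) and passed in each tumor alone, calls that were lost with either covariate (adjusted p 0.439 and 0.642 in GL261, 0.0876 and 0.179 in B16). Ptgs1, which makes the precursor of prostacyclin, rose by 4.18 (SE 0.70, limma adjusted p = 0.00499), from at most 4.55 FPKM in controls to 19.6 to 69.6. Nos3, the endothelial nitric oxide synthase, rose by 3.62 (SE 0.76, limma adjusted p = 0.0186), from at most 2.80 FPKM to 8.10 to 56.0, and its adjusted p was 0.0664 without control replicate 1 and 0.0518 without B16 replicate 3. Ptgis, the prostacyclin synthase, was listed at 0 in all controls and in B16 replicate 1 and at 19.9 to 153 in the other 5 libraries (difference 4.93, SE 1.30, limma adjusted p = 0.0542). Entpd1, Ptgis, Ptgs1, Nos3 and Plaur are also among the genes the study picked as upregulated on these libraries, which is not independent evidence of their direction.

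The Weibel-Palade body, which stores Vwf, was covered by 8 genes, of which 1 rose and 1 fell (2.9% and 1.02% of all genes). Selp, the adhesion receptor P-selectin stored beside Vwf, had 0.945, 34.7 and 1.54 FPKM in control, 52.3, 45.1 and 64.7 in GL261 and 81.6, 24.1 and 60.9 in B16 replicates 1 to 3. Control replicate 2 lay above B16 replicate 2. With control replicate 1 below an FPKM of 1, Selp passed the filter only through tumor-associated libraries, which favoured a higher level with tumors. Selp rose by 3.22 (SE 0.81, limma adjusted p = 0.0443), and with 1 library left out kept this call only without control replicate 2 (adjusted p 0.00107 to 0.149). Over all 19 alternatives, Selp passed in 2. Cd63, a membrane protein of these bodies and of late endosomes, had 807 to 969 FPKM in controls and 240.0 to 568 in tumor-associated libraries, and fell by 1.30 (SE 0.30, limma adjusted p = 0.0283). Without control replicate 1, 0 of the 8 genes passed (adjusted p 0.149 for Selp and 0.0641 for Cd63), and Cd63 was also lost without control replicate 2 (0.0759), control replicate 3 (0.0836) or GL261 replicate 2 (0.0537), without the filter (0.0656) and without the trend (0.157). Rab27a, which acts in the exit of these bodies, had 9.70 to 17.6 FPKM in controls, 0.604 to 7.36 in GL261 and 0 in all 3 B16 libraries. It fell in B16 (-3.82, SE 0.84, limma adjusted p = 0.0416), but not past the threshold over both tumors (-2.78, SE 0.87, adjusted p = 0.101). With 1 library left out, the B16 call was kept only without GL261 replicate 1 (adjusted p 0.0494 to 0.134), and it was lost with quantile normalization (0.0556), without the filter (0.0882) and with only the 2 groups compared (0.106).

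**Figure D4:**
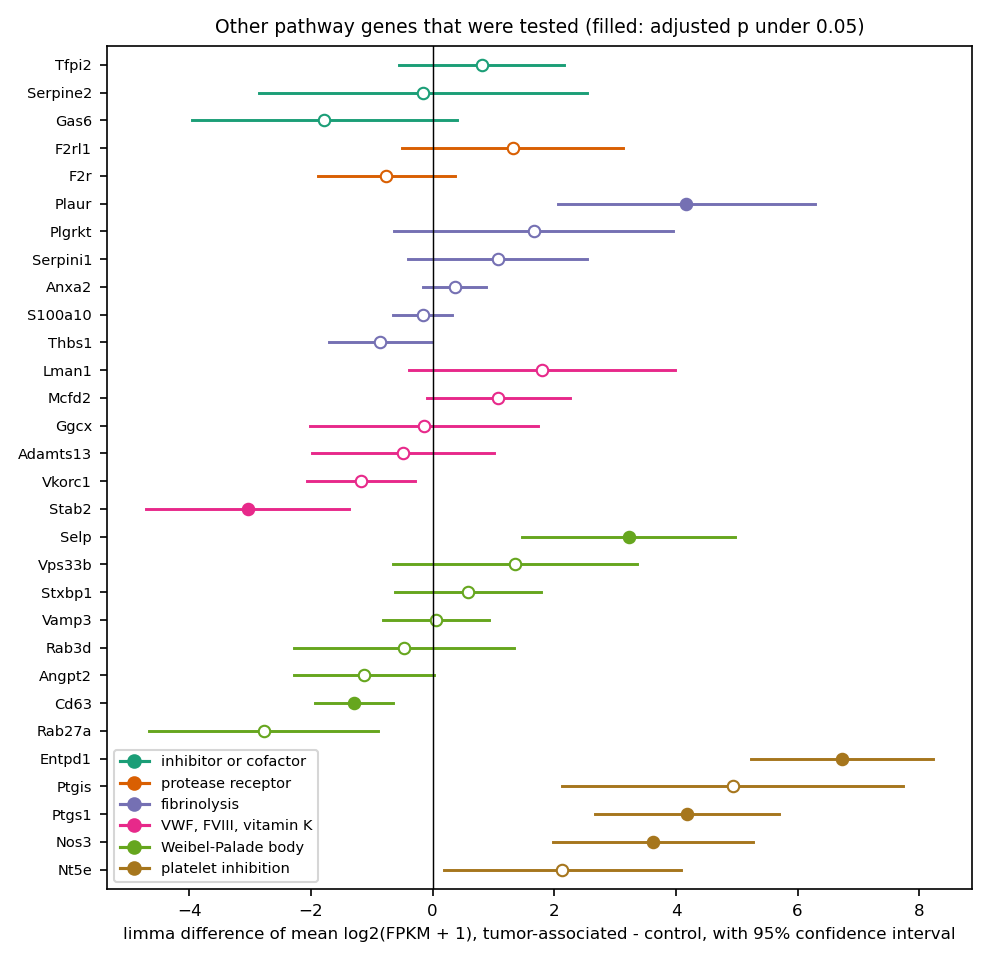
limma differences of mean log2(FPKM + 1), tumor-associated minus control (horizontal axis), with 95% confidence intervals for the 30 partner genes tested (vertical axis), coloured by list. Filled points passed the threshold, which were Plaur, Selp, Entpd1, Ptgs1 and Nos3 on the higher side and Stab2 and Cd63 on the lower side.

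Over the 9 libraries, the levels of the genes moved together in part. The highest correlation of log2(FPKM + 1) between 2 of the 8 genes was that of Procr with Thbd (Pearson r = 0.949), followed by Procr with Vwf (r = 0.891), and the lowest was that of Pros1 with Plat (r = -0.908). The 3 genes of all those tested that were nearest to Procr were Jam2 (r = 0.979), Ackr3 (r = 0.974) and Abcb1a (r = 0.967). Those nearest to Thbd were Itga3, Emp3 and Rgmb, to Tfpi Paqr4, Ifngr2 and Urod, and to Pros1 Prkcz, Tjp1 and Slc4a7. Those nearest to Vwf were Asap3, Rpl36 and Pafah1b3, to F8 Prune2, Ttc32 and Itih5, to Plat 3110002H16Rik, Clp1 and C1qtnf1, and to Plau Git2, Col23a1 and Mrpl24. These correlations describe 9 libraries in 3 groups that share the difference between tumor-associated and control MLECs and in listed genes, and they have no p.

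Marker genes of other cells moved with the groups to different extents. For the mural list, 4 of 5 genes were above 0 in control replicate 1, and the sum in the other 8 libraries was at most 11.4 FPKM. Of 8 leukocyte markers, 3 (Ptprc, Adgre1 and Cd3e) were at 0 in all 9 libraries, and the sums overlapped (66.4 to 207 in controls and 4.38 to 536 in tumor-associated libraries). Platelet and megakaryocyte genes summed to at most 4.10 FPKM in controls and to 4.35 to 188 in tumor-associated libraries. Of the melanocyte markers 3 of 5 and of the glial markers 2 of 4 were at 0 in all libraries. The part of these cells in the differences of Procr, Vwf, F8, Plat and Plau was not tested.

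**Figure D5:**
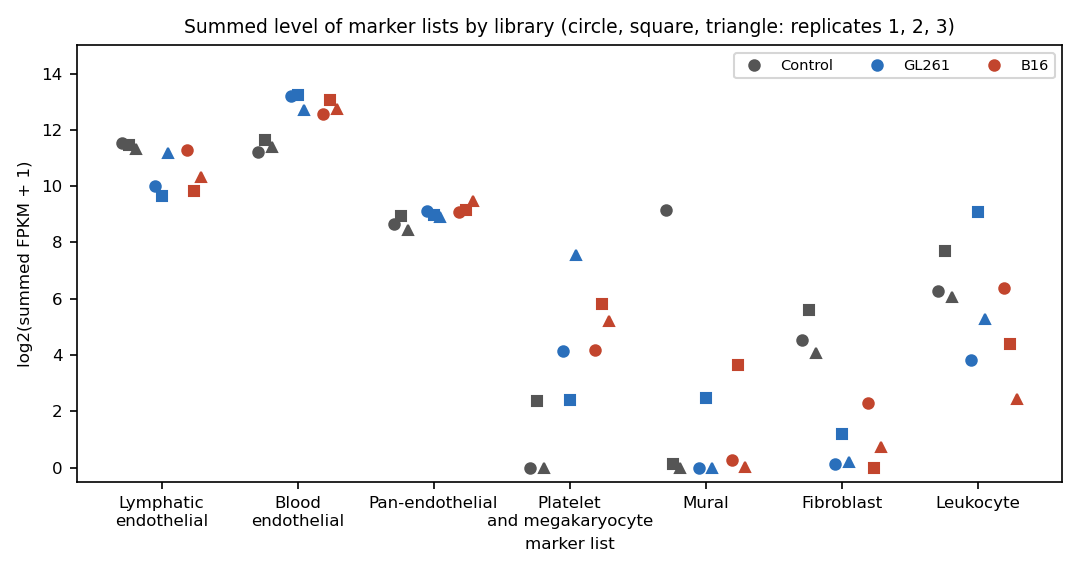
Summed FPKM of 7 marker lists as log2(sum + 1) (vertical axis) in each library, by list (horizontal axis) and group (colour), with symbols for replicates 1, 2 and 3. The blood endothelial sums are higher and the lymphatic and fibroblast sums lower in all tumor-associated libraries than in the controls, and the mural sum is high in control replicate 1 only. The fibroblast sums of the controls are mostly Dcn.

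Calls for Procr and Vwf depended on how library content was treated. With the number of genes above 0 in each library as a covariate, 0 of the 8 genes passed, and Procr had a difference of 3.46 (limma adjusted p = 0.336) and Vwf one of 2.80 (adjusted p = 0.481). Leaving out any 1 library, the Procr difference between tumor-associated and control MLECs stayed between 4.27 and 6.17 with an adjusted p of at most 0.0231.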

How the data were processed

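The 9 genes and the lists of partner and marker genes were chosen with earlier results of these data known. The authors trimmed the reads, aligned them to mm9 with TopHat2 2.0.12 and computed FPKM with Cufflinks 2.2.1. The deposited table lists these FPKM by gene symbol for each library. The gene annotation given to Cufflinks is not given in the sources used here. FPKM hold no counts, so no interval for counting error could be given. RNA of about 10 cells was amplified before sequencing, so a value of 0 can be a transcript that was lost. Groups came from the sample titles. log2(FPKM + 1) was tested in R 4.3.3 with the linear models of limma 3.58.1, its variance moderation following the mean level (trend), with the 9 libraries in 2 groups for tumor-associated against control MLECs and in 3 groups otherwise. The limma script was checked on simulated data. Exact permutation tests were two-sided and used the absolute difference of mean log2(FPKM + 1) over 84 divisions, while 3 libraries against 3 cannot give a p below 0.1. Between same-numbered libraries of different groups, deviations from the group means correlated at -0.0334 to 0.0443 (9 pairs). Of the 9 libraries, 3 were closest to their own number in both other groups. With 3 libraries a group, these values cannot show whether the replicate numbers pair the libraries. Named partner genes are those past the threshold, at most 5 a list, with Plaur, F2r, Proc and Plg in any case; Ptgis, Tfpi2, Serpine2, Gas6, Anxa2, S100a10 and the factor genes were named after their values were seen. A gene of the fibrinolysis list is not reported here. Gene positions are those of GENCODE M1 on mm9. Alternatives were a pseudocount of 0.1, rescaling each library to a sum of 1000000, quantile normalization, other filters, no trend, the aligned reads or the genes above 0 as a covariate, other groupings, a replicate block and each library left out. The aligned reads came from the study's own listing and served only as a covariate. Figures were drawn with matplotlib 3.10.9 in Python 3.11.15.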

Additional observations from a re-analysis of the deposited data

Results flagged for a closer look

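F3, the tissue factor gene, was above 0 in 1 of the 6 tumor-associated libraries, GL261 replicate 2 with 4.96 FPKM, and listed at 0 in the other 5. The gap of this library to the nearest of the others was the whole range of the group, a ratio of 1, above the critical value of Dixon's test for 6 samples. Chance alone marks about 0.05 of groups of normally distributed values, a rate that does not hold for values mostly at 0. A ratio of 1 always arises where a single library is above 0. In the same library the leukocyte genes C1qa (186 FPKM) and Lyz2 (324 FPKM) had their highest values among the 9 libraries, and their part in the F3 value was not tested.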

How the results depend on the processing

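Of 8 genes tested, 2 passed between tumor-associated and control MLECs (Procr and Vwf), and 2 to 4 did with 1 library left out, 4 (Procr, Vwf, Thbd and Tfpi) without control replicate 2 and Procr with Plat in place of Vwf without control replicate 1. With the aligned reads as a covariate 0 passed, and with the genes above 0 as a covariate 0 passed. For GL261 against control the count was 3, and it was 0 with either covariate (0 and 0), 1 with the replicate block (Vwf), 1 with only the 2 groups compared (Vwf), and 0 to 3 with 1 library left out, 0 without any 1 GL261 library and 1 (Vwf) without control replicate 3. Within that count, Procr was also lost with a pseudocount of 0.1 (adjusted p = 0.0585), no filter (0.0811) and no trend (0.0596). For B16 against control the count was 1 (Procr), and it was 0 with a pseudocount of 0.1, 0 without the filter, 0 and 0 with the covariates, 0 with only the 2 groups compared, and 0 to 1 with 1 library left out, 0 without control replicate 1, control replicate 3 or B16 replicate 3. GL261 against B16 gave 0 throughout. The replicate block changed no other count of the 8 genes (2 for both tumors, 1 for B16 and 0 for GL261 against B16), and among the partner genes limma no longer called Selp (adjusted p = 0.0688), Stab2 (0.0686) or, in B16, Rab27a (0.0735). Neither covariate overlaps between control and tumor-associated libraries, so sequencing depth and tumor status cannot be told apart. Directions changed as follows, none of them in a difference past the threshold. With the aligned reads as a covariate, GL261 against control turned to -0.36 for Thbd, 0.29 for Pros1, 0.24 for F8 and -2.31 for Plat, GL261 against B16 to -0.29 for Tfpi and -2.42 for Plat, and tumor-associated against control to 0.20 for F2r. With the genes above 0 as a covariate, GL261 against control turned to -0.60 for Thbd and -0.32 for Tfpi, GL261 against B16 to -0.95 for Tfpi and -0.29 for Plat, and tumor-associated against control to 0.34 for F2r. Rescaling to a sum of 1000000 turned GL261 against B16 for Plat to -0.16. With 1 library left out, GL261 against B16 ran from -1.20 to 0.27 for Procr, -0.63 to 0.087 for Thbd, -0.22 to 0.88 for Tfpi, -0.030 to 1.20 for F8 and -0.85 to 0.69 for Plat. In tumor-associated against control MLECs, each of the 8 genes kept its direction under every alternative run, and F8 has no value under the filter on a mean FPKM of 10. The fits of the partner genes under these alternatives, and the lists without control replicate 1, were chosen after seeing the data.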
